A study of Bos taurus and other sequences with 9 samples.

Results

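The blood-cell miRNAs hsa-miR-223-3p, hsa-miR-142-3p, hsa-miR-142-5p and hsa-miR-150-5p were followed through the culture media. They were chosen by name and make up 4 of the 425 miRNAs in the count table, and all 4 were detected in FBS. Small ncRNA had been sequenced from EV (extracellular vesicle) isolates of 9 media samples. FBS-1 and FBS-2 were media with untreated fetal bovine serum of Sigma and of Gibco. UC-dFBS-1 and UC-dFBS-2 held the same sera, in that order, after removal of EVs by ultracentrifugation, of which the top layer of the supernatant was kept. UF-dFBS-1 and UF-dFBS-2 again held the same sera, after passage through an ultrafiltration membrane, of which the flow-through was kept. SBI-dFBS-1 and SBI-dFBS-2 held commercial EV-depleted FBS of System Biosciences, bought as such in separate lots, so that SBI-dFBS has no untreated counterpart among the samples. StemPRO was a defined serum-free and xeno-free medium of Gibco for mesenchymal stem cells, with 1 sample. The paper lists the serum-containing samples as 1 shared basal medium with the serum added as a minor part. Their values are thus those of diluted and not of neat serum. All media were sequenced without cells having been grown in them, and serum is itself a pooled, cell-free product. The isolates were made with a column kit, and the sequencing files hold no protein marker of vesicles, so that the labelled sample type could not be checked here. A lower value can mean fewer vesicles, less RNA per vesicle or less RNA outside vesicles, which these counts cannot tell apart. RNA outside vesicles was not separated from RNA inside them. The paper counted particles in other isolates, made by ultracentrifugation. It reports like numbers for FBS and SBI-dFBS, fewer for UC-dFBS and very few for UF-dFBS. How these numbers relate to the miRNA values was not tested.

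A miRNA is cut from a hairpin precursor, and either arm of the hairpin (5p or 3p) can be loaded into an Argonaute protein, where it guides the repression of mRNAs with matching sites. miR-223 is best known from neutrophils and other myeloid cells and is also plentiful in platelets. miR-142 is made in nearly all blood cell lineages, and both of its arms are in use. miR-150 is a miRNA of mature lymphocytes. As these miRNAs are conserved between cattle and humans and the reads were counted under human names, the counts do not show the species of origin, and a culture medium that carries them adds them to any EV preparation from cells grown in it.

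Values are given as counts, which are reads per miRNA after collapsing by unique molecular index (UMI), and as spike-in normalized counts, in which the authors divided the counts of a sample by the slope of its external spike-in fit. Total miRNA counts lay between 26275 and 203755 for FBS, SBI-dFBS and UC-dFBS samples, whereas UF-dFBS had 4204 and 937 and StemPRO 1438, so that values of UF-dFBS and StemPRO rest on few counts. A count of 0 allows up to 3 counts, which is 0.0543 and 0.125 spike-in normalized counts in UF-dFBS. Intervals are exact 95% intervals for counting error only, and hold neither the error of the spike-in fit nor that between preparations. Sample 1 and sample 2 of a medium came from different sera or lots. The SD thus holds the spread between these, along with counting and preparation error, with 2 samples per medium. The fitted p-values between media come from a model with medium as the only term, where samples of 1 serum count as independent. A fit with the serum as block is given at the end. An exact permutation test of 2 samples against 2 cannot go below p = 0.333, so that media were compared by a fit across all 163 miRNAs with at least 10 counts in at least 2 of the 8 FBS-based samples (edgeR quasi-likelihood F-test on the spike-in scale, Benjamini-Hochberg adjusted p). All 4 miRNAs passed this filter, miR-150-5p through the FBS samples only, as did 50 of the 163. Such a miRNA is high in FBS by selection, so that its counts against FBS are described and lend no support.

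miR-223-3p had 308 and 200.5 spike-in normalized counts in FBS-1 and FBS-2 (1494 and 1495 counts). In UC-dFBS it had 54.6 and 37.5 (357 and 256 counts), and in SBI-dFBS 3.98 and 6.35 (36 and 24 counts). In UF-dFBS it had 0.489 and 0.624 (27 and 15 counts). The media were thus ordered FBS, UC-dFBS, SBI-dFBS and UF-dFBS, with no overlap between any of them. StemPRO had 0.287 spike-in normalized counts of miR-223-3p (31 counts, interval 0.195 to 0.407), close to the interval of UF-dFBS-1 (0.322 to 0.711), which it overlapped.

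miR-142-3p was the most abundant of the 4 in FBS, SBI-dFBS and UC-dFBS. It had 2759 and 821 spike-in normalized counts in FBS (13363 and 6117 counts) and was the 2nd most counted miRNA of FBS-1. In SBI-dFBS it had 120 and 494 (1085 and 1865 counts), and in UC-dFBS 191.5 and 71.7 (1252 and 489 counts). The last 2 media overlapped, since SBI-dFBS-1 lay between both UC-dFBS samples. In UF-dFBS only 16 and 2 counts were left (0.290 and 0.0833 spike-in normalized counts), and StemPRO had 0.305 (33 counts, interval 0.210 to 0.429), which overlapped with UF-dFBS-1 (0.166 to 0.470).

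miR-142-5p, from the other arm of the same hairpin, was less abundant than miR-142-3p in FBS, SBI-dFBS and UC-dFBS. It had 589 and 136 spike-in normalized counts in FBS (2852 and 1012 counts), 41.7 and 129 in SBI-dFBS (377 and 488 counts) and 62.7 and 27.0 in UC-dFBS (410 and 184 counts). SBI-dFBS and UC-dFBS overlapped again, and SBI-dFBS-2 came close to FBS-2. In UF-dFBS miR-142-5p had 17 and 2 counts (0.308 and 0.0833 spike-in normalized counts), and in StemPRO 8 counts (0.0740).

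miR-150-5p was the least abundant of the 4 in every sample. It had 15.3 and 10.3 spike-in normalized counts in FBS (74 and 77 counts) and 1.84 and 1.03 in UC-dFBS (12 and 7 counts). SBI-dFBS held 1 and 2 counts (0.111 and 0.529 spike-in normalized counts, intervals 0.00280 to 0.616 and 0.0641 to 1.91), both below UC-dFBS, with single-sample intervals that overlap those of UC-dFBS. No count was seen in UF-dFBS, where 0 of 4204 and 0 of 937 miRNA counts allow a share of up to 0.0714% and 0.320%. The 7 counts in StemPRO came to 0.0648 spike-in normalized counts (interval 0.0260 to 0.133).

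**Figure D1:**
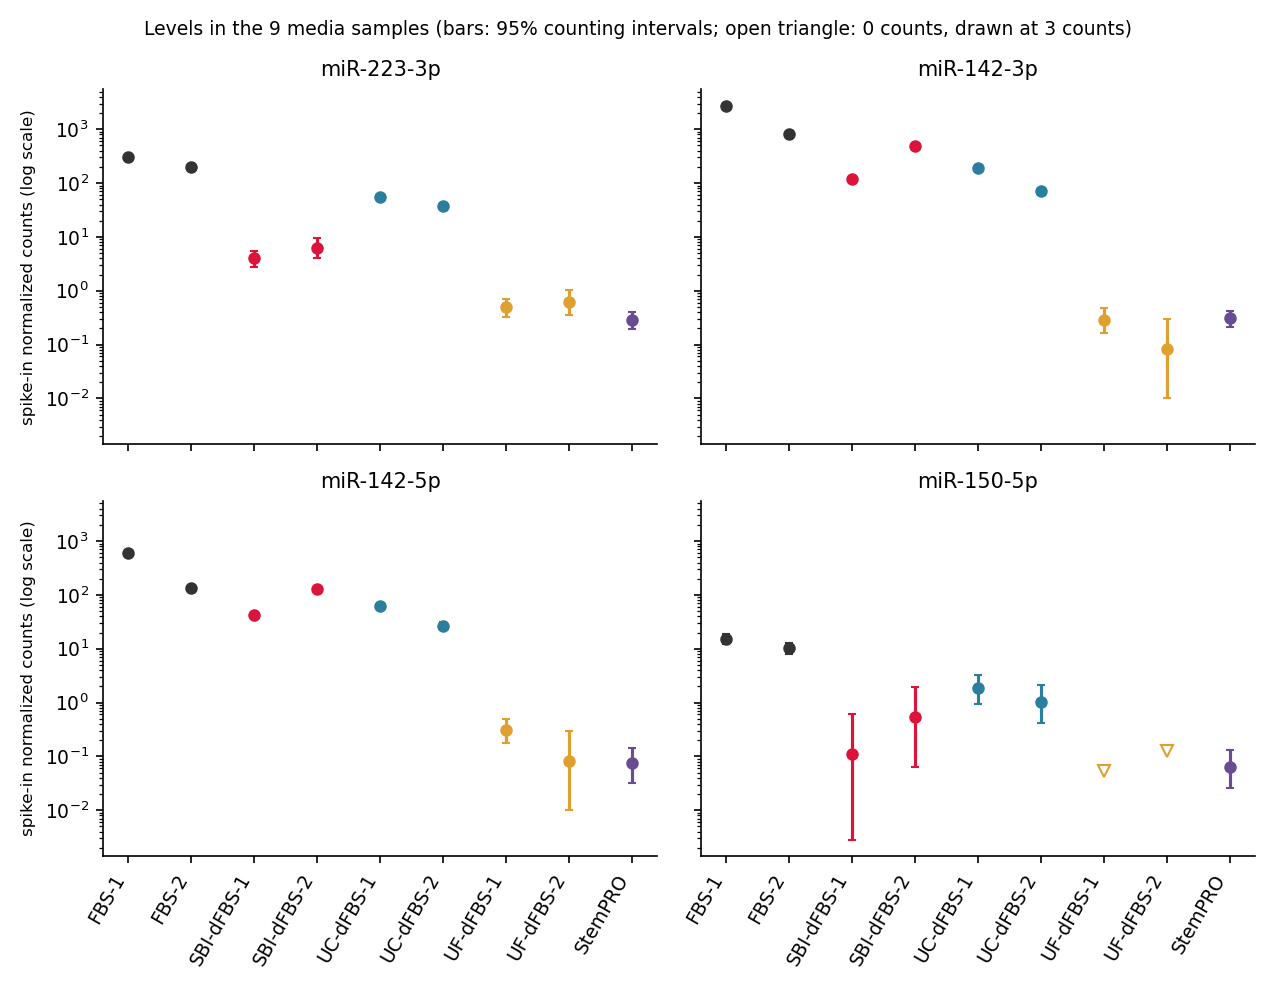
Spike-in normalized counts (log axis) of the 4 miRNAs in each of the 9 media samples, with exact 95% counting intervals as bars and open triangles for 0 counts drawn at 3 counts. miR-223-3p drops from 54.6 and 37.5 in UC-dFBS to 3.98 and 6.35 in SBI-dFBS, whereas the SBI-dFBS and UC-dFBS values of both miR-142 arms overlap.

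The commercial depleted serum was compared with untreated FBS to ask what remains in a product sold as EV-depleted. miR-223-3p was 98.0 ± 0.897% lower in SBI-dFBS than in FBS (SD propagated from both media, n = 2 each), from 254 ± 76.3 to 5.17 ± 1.68 spike-in normalized counts, and miR-150-5p was 97.5 ± 2.41% lower. In contrast, miR-142-3p was 82.9 ± 19.8% lower and miR-142-5p 76.4 ± 27.0% lower. As folds of the means, miR-223-3p was 49.3-fold lower, miR-142-3p 5.83-fold and miR-142-5p 4.24-fold. For miR-150-5p, with 3 counts in SBI-dFBS against 151 in FBS, the fold over the pooled counts was 52.5 (interval 17.6 to 257). Both samples of SBI-dFBS were below both of FBS for each of the 4, as for 122 of the 163 miRNAs (74.8%).

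In the fit, the 3 members that passed the filter without the FBS samples were lower in SBI-dFBS than in FBS. Of all miRNAs tested, 44.2% were lower (72 of 163, with 50 of the 163 in the fit through FBS only), and 2 others (1.23%) were higher. miR-150-5p was called lower too, but passed through FBS only, so that its call, position and TMM value are descriptive. miR-223-3p had a log2 fold change of -5.64 (SE 0.78, adjusted p = 1.89e-10), the 2nd lowest of 163, and miR-150-5p of -5.59 (SE 1.1, adjusted p = 1.80e-05), the 4th lowest. The median of all miRNAs was -1.70, so that these 2 stood at -3.95 and -3.90 relative to the median. miR-142-3p had -2.54 (SE 0.92, adjusted p = 0.0166) and miR-142-5p -2.09 (SE 0.70, adjusted p = 0.0106), at positions 39 and 64 from the lowest and at -0.85 and -0.39 relative to the median. Leaving out 1 library at a time moved the log2 fold change of miR-142-3p between -3.90 and -1.42 and that of miR-142-5p between -3.12 and -0.67. The calls of both arms were lost without FBS-1 (adjusted p = 0.276 for miR-142-3p and 0.590 for miR-142-5p) and without SBI-dFBS-1 (0.236 and 0.217), and on the scale of the miRNA counts themselves (TMM), on which the median of all miRNAs was 0.21, whereas miR-223-3p was still called with -3.84 and miR-150-5p with -3.77. SBI-dFBS-1 held less of both arms than SBI-dFBS-2, which had 412% of the miR-142-3p and 310% of the miR-142-5p value of lot 1.

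Ultracentrifuged serum was compared with the same serum before the spin. In both sera, miR-142-3p was lowered more than miR-223-3p and miR-142-5p: 14.4-fold in the Sigma serum (interval 13.6 to 15.3) and 11.4-fold in the Gibco serum (10.4 to 12.6). miR-223-3p was lowered 5.65-fold (5.03 to 6.36) and 5.34-fold (4.68 to 6.13), and these intervals lie wholly below those of miR-142-3p. miR-142-5p, at 9.39-fold (8.46 to 10.4) and 5.03-fold (4.30 to 5.92), differed between the sera. For miR-150-5p the folds were 8.32 (4.49 to 16.8) and 10.1 (4.66 to 25.9), with wide intervals from 12 and 7 counts. The sequence of the members was thus not that seen in SBI-dFBS, where miR-223-3p was far more lowered than miR-142-3p. Both comparisons use the same FBS samples.

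In the fit, all 4 were lower in UC-dFBS than in FBS, the call of miR-150-5p being descriptive, as it passed the filter through FBS only. As 90.8% of all miRNAs tested were lower too (148 of 163), the 4 calls do not set these miRNAs apart. The log2 fold change was -3.77 for miR-142-3p (SE 0.97, adjusted p = 0.000425), -3.15 for miR-150-5p (SE 0.89, adjusted p = 0.00109), -3.01 for miR-142-5p (SE 0.72, adjusted p = 0.000177) and -2.47 for miR-223-3p (SE 0.66, adjusted p = 0.000678), against a median of -2.70. miR-142-3p was the 16th lowest of 163 and miR-223-3p stood at position 106, on the side of the median where miRNAs were lowered less. The fall is a fall against the spike-ins: on the TMM scale the median of all miRNAs was -0.08, none of the 4 was called, and miR-223-3p turned to 0.15. The call of miR-142-5p was lost without FBS-1 (adjusted p = 0.0633) and that of miR-150-5p without UC-dFBS-2 (adjusted p = 0.0645).

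Ultrafiltered serum, compared in the same way, kept the smallest amounts. miR-223-3p was lowered 631-fold in the Sigma serum (interval 432 to 961) and 321-fold in the Gibco serum (194 to 575). miR-142-3p was lowered 9523-fold (5862 to 16666) and 9855-fold (2727 to 81394), and miR-142-5p 1913-fold (1193 to 3288) and 1630-fold (450.2 to 13481). Thus in the Sigma serum the intervals of the 3 miRNAs did not overlap, and in the Gibco serum that of miR-223-3p lay below that of miR-142-3p, whose lower end rests on 2 counts. miR-150-5p, at 0 counts, was at least 281-fold lower in the Sigma serum and at least 82.7-fold lower in the Gibco serum, taking 3 counts per library as the floor, and the exact counting intervals, which also hold the error of the FBS counts, start at 223 and 65.7. UF-dFBS lay below FBS without overlap for each of the 4, as for 98.8% of all miRNAs tested, and below UC-dFBS likewise, as for 89.6%.

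In the fit, UF-dFBS was lower than FBS for all 4 miRNAs and for 98.2% of all miRNAs tested (160 of 163). miR-142-3p had a log2 fold change of -13.05 (SE 1.43, adjusted p = 3.12e-18), the 2nd lowest of 163 and -4.38 relative to the median of -8.67. miR-142-5p had -10.67 (SE 1.02, adjusted p = 1.19e-22), the 15th lowest, and miR-223-3p -8.83 (SE 0.89, adjusted p = 5.57e-21), at position 76 and -0.16 relative to the median. The fit also called miR-150-5p lower (adjusted p = 3.05e-14), but it passed the filter through FBS only, and its fitted fold has no meaning at 0 counts. On the TMM scale, with a median of -0.59, miR-142-3p was the only member still called (log2 fold change -4.12), and miR-223-3p had -0.04. Against UC-dFBS, UF-dFBS was again lower for all 4, with 93.9% of all miRNAs called lower (153 of 163), and the log2 fold change was -9.28 for miR-142-3p, -7.66 for miR-142-5p and -6.36 for miR-223-3p, against a median of -5.83.

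**Figure D2:**
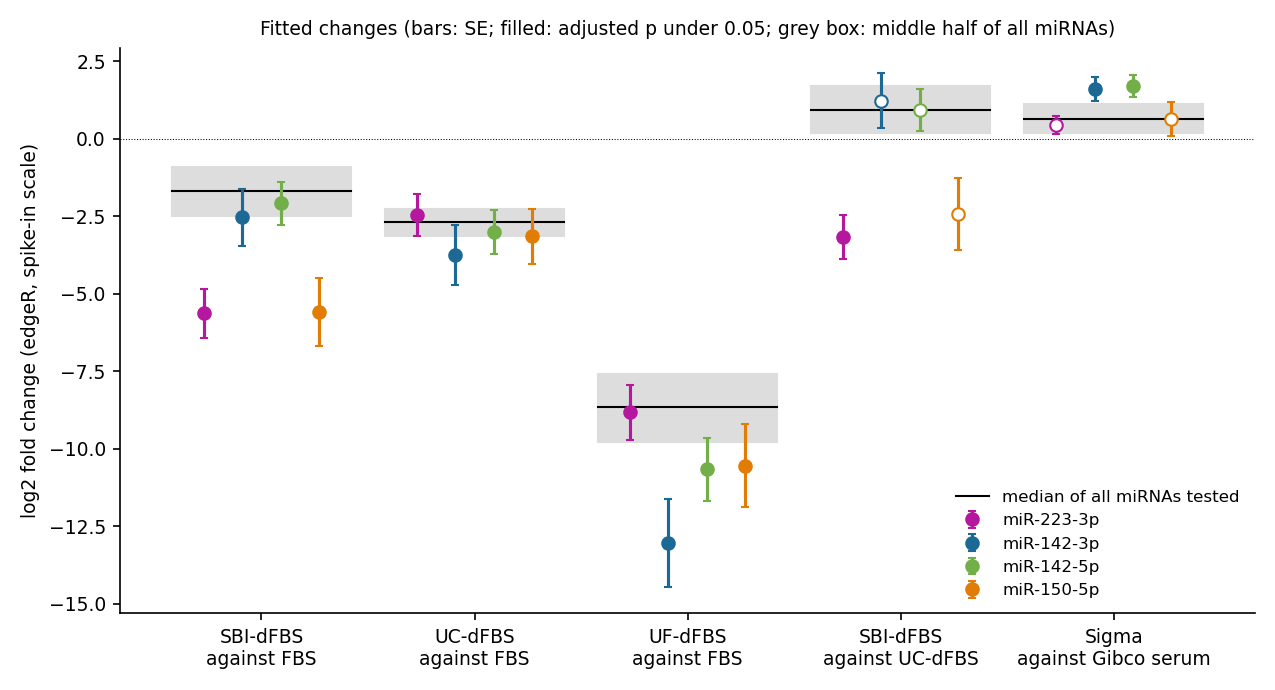
Fitted log2 fold changes of the 4 miRNAs in 5 comparisons (edgeR, spike-in scale), with SE as bars and filled symbols for an adjusted p under 0.05. The grey boxes run from the lower to the upper quartile of all miRNAs tested and the black line is their median. miR-223-3p lies at -5.64 in SBI-dFBS against FBS, far under the median of -1.70. miR-150-5p lies at -5.59 there, but passed the filter through FBS only, so that its symbols against FBS are descriptive. miR-142-3p lies at -13.05 in UF-dFBS against FBS, where the median is -8.67. On the TMM scale miR-223-3p turns to 0.15 in UC-dFBS against FBS and to -0.22 in Sigma against Gibco serum, and miR-150-5p to -0.15 in the latter.

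The opposite order of miR-223-3p and miR-142-3p in both kinds of depleted serum led to a direct comparison of SBI-dFBS with UC-dFBS, which was added after these values had been seen. It does not use the FBS samples as reference, although they enter the estimate of the spread. miR-223-3p averaged 5.17 ± 1.68 spike-in normalized counts in SBI-dFBS and 46.1 ± 12.1 in UC-dFBS (SD, n = 2 each), which is 8.92-fold lower in SBI-dFBS. Both SBI-dFBS samples were below both UC-dFBS samples for miR-223-3p and miR-150-5p, as for 9.82% of all miRNAs tested. Its log2 fold change was -3.18 (SE 0.70, adjusted p = 0.000304), and on the spike-in scale it was the only miRNA of 163 called lower in SBI-dFBS than in UC-dFBS (0.613%), while 19 miRNAs (11.7%) were called higher. On the TMM scale 7 miRNAs were called lower and 7 higher, and with the size factors of DESeq2 4 were called lower and 5 higher. The median of all miRNAs was 0.93. The 1 miRNA with a lower estimate, miR-31-5p at -4.22, had an SE of 3.22 and was not called. Without SBI-dFBS-1, miR-223-3p kept its direction at -2.86 but missed the threshold (adjusted p = 0.0570). On the TMM scale it had -4.0.

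For miR-150-5p the log2 fold change between SBI-dFBS and UC-dFBS was -2.44 (SE 1.15, adjusted p = 0.145), the 4th lowest of 163, from 3 counts against 19, and the pooled fold of 6.08 had an interval of 1.79 to 32.1. The call depended on the scale, with an adjusted p of 0.0272 under TMM. miR-142-3p and miR-142-5p had mean values 2.33-fold and 1.91-fold higher in SBI-dFBS, with log2 fold changes of 1.22 (SE 0.88) and 0.93 (SE 0.68) and an adjusted p of 0.360 for each. These differences did not exceed the spread between samples, and both became negative without SBI-dFBS-2 (-0.13 and -0.11).

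**Figure D3:**
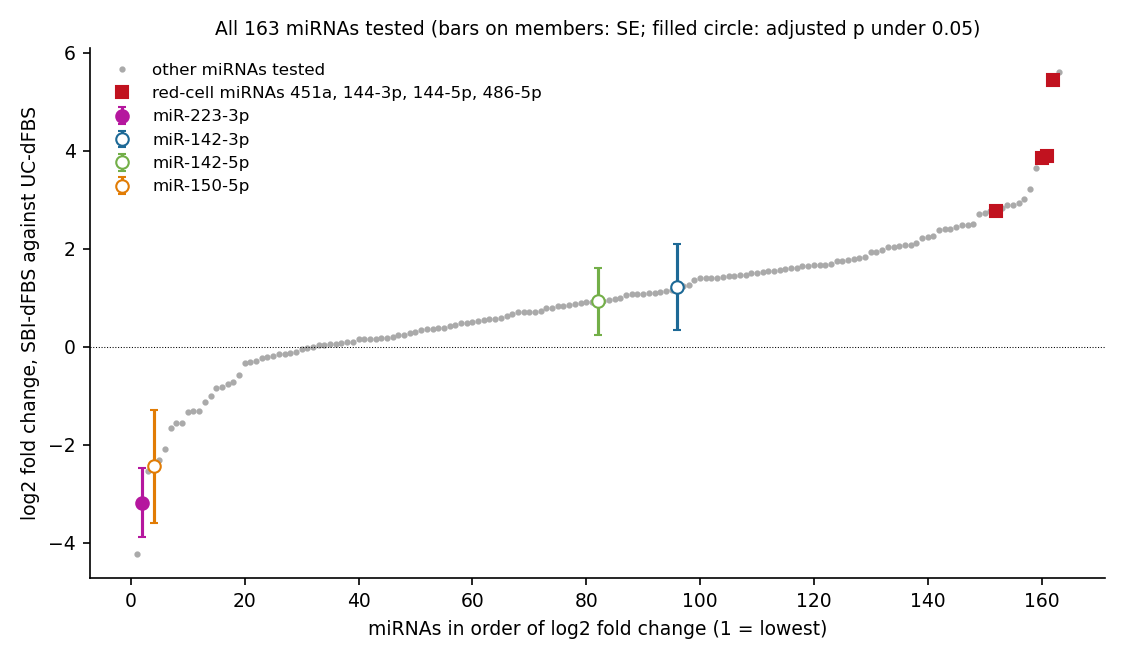
All 163 miRNAs tested, in order of their log2 fold change in SBI-dFBS against UC-dFBS. The 4 followed miRNAs are drawn as circles with SE bars and the red-cell miRNAs as squares. miR-223-3p (-3.18) is 2nd from the left and miR-150-5p (-2.44) 4th, miR-142-5p (0.93) and miR-142-3p (1.22) lie near the middle, and the red-cell miRNAs, from 2.77 to 5.44, lie at the right end. The highest of these, miR-144-5p, had 4 and 0 counts in UC-dFBS.

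The sera of both suppliers were prepared in the same 3 ways, so that the supplier could be tested with the medium as a second term, in 6 samples and 105 miRNAs. Both miR-142 arms were higher in the Sigma serum than in the Gibco serum. miR-142-3p was 3.36-fold higher in FBS (interval 3.26 to 3.47) and 2.67-fold higher in UC-dFBS (2.40 to 2.97), and miR-142-5p 4.34-fold (4.04 to 4.66) and 2.33-fold (1.95 to 2.78). miR-223-3p differed less, with 1.54-fold (1.43 to 1.65) in FBS and 1.46-fold (1.24 to 1.72) in UC-dFBS. For miR-150-5p the fold was 1.48 (1.06 to 2.06) in FBS and 1.79 (0.649 to 5.36) in UC-dFBS. In UF-dFBS the folds of miR-142-3p and miR-142-5p were 3.48 (0.818 to 31.2) and 3.70 (0.877 to 33.0), which the 2 counts of UF-dFBS-2 cannot set apart from 1.

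In the fit, 2 of the 4 were called higher in the Sigma serum, where 35.2% of all miRNAs tested were (37 of 105) and 1.9% were lower. The log2 fold change was 1.69 for miR-142-5p (SE 0.36, adjusted p = 0.000170) and 1.60 for miR-142-3p (SE 0.39, adjusted p = 0.00109), against a median of 0.62. miR-150-5p had 0.63 (SE 0.54, adjusted p = 0.349) and miR-223-3p 0.43 (SE 0.29, adjusted p = 0.235), and on the TMM scale both turned negative, to -0.15 and -0.22. Without UF-dFBS-1 or without UF-dFBS-2, miR-223-3p was called higher in the Sigma serum (0.58, adjusted p = 0.0135 and 0.0112). The calls of both arms were kept under TMM (0.99 and 0.89) and lost without any 1 of the FBS or UC-dFBS samples, where the adjusted p lay between 0.159 and 0.823 and the log2 fold changes between 1.36 and 2.05. Each serum was 1 lot, so that supplier and lot cannot be told apart.

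Ratios of miRNAs within a library do not depend on the spike-ins. Of the counts of both miR-142 arms, the 5p arm held 17.6% and 14.2% in FBS, 25.8% and 20.7% in SBI-dFBS, and 24.7% and 27.3% in UC-dFBS. In UF-dFBS it held 51.5% (17 of 33 counts, interval 33.5 to 69.2) and 50% (2 of 4 counts, interval 6.76 to 93.2). The 3p arm was thus the larger in FBS, SBI-dFBS and UC-dFBS, and the arms were level in UF-dFBS, where the second sample by itself leaves nearly any share possible. The mean share was 50.8 ± 1.07% in UF-dFBS (SD, n = 2) and 21.7 ± 5.13% in the other 6 samples, a difference of 29.0 percentage points (exact two-sided permutation test, p = 0.0714, the smallest that 2 against 6 samples allow). The SD of UF-dFBS is far smaller than the counting intervals of its 2 samples and is no measure of their precision. StemPRO had 19.5% (8 of 41 counts, interval 8.82 to 34.9).

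The balance of miR-223-3p and miR-142-3p shifted further. miR-223-3p made up 10.1% and 19.6% of the counts of both in FBS and 22.2% and 34.4% in UC-dFBS, but 3.21% and 1.27% in SBI-dFBS (intervals 2.26 to 4.42 and 0.816 to 1.88). In UF-dFBS it made up 62.8% (46.7 to 77.0) and 88.2% (63.6 to 98.5). Expressed the other way, there were 8.94 and 4.09 counts of miR-142-3p per count of miR-223-3p in FBS, 30.1 and 77.7 in SBI-dFBS, and 0.593 and 0.133 in UF-dFBS. In each of the 3 media made from the same sera, the share of miR-223-3p was lower in the Sigma than in the Gibco sample. miR-150-5p stayed between 2.66% and 7.69% of the counts of miR-150-5p plus miR-223-3p in FBS, SBI-dFBS and UC-dFBS, a range within the counting interval of SBI-dFBS-2 (0.946 to 25.1).

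**Figure D4:**
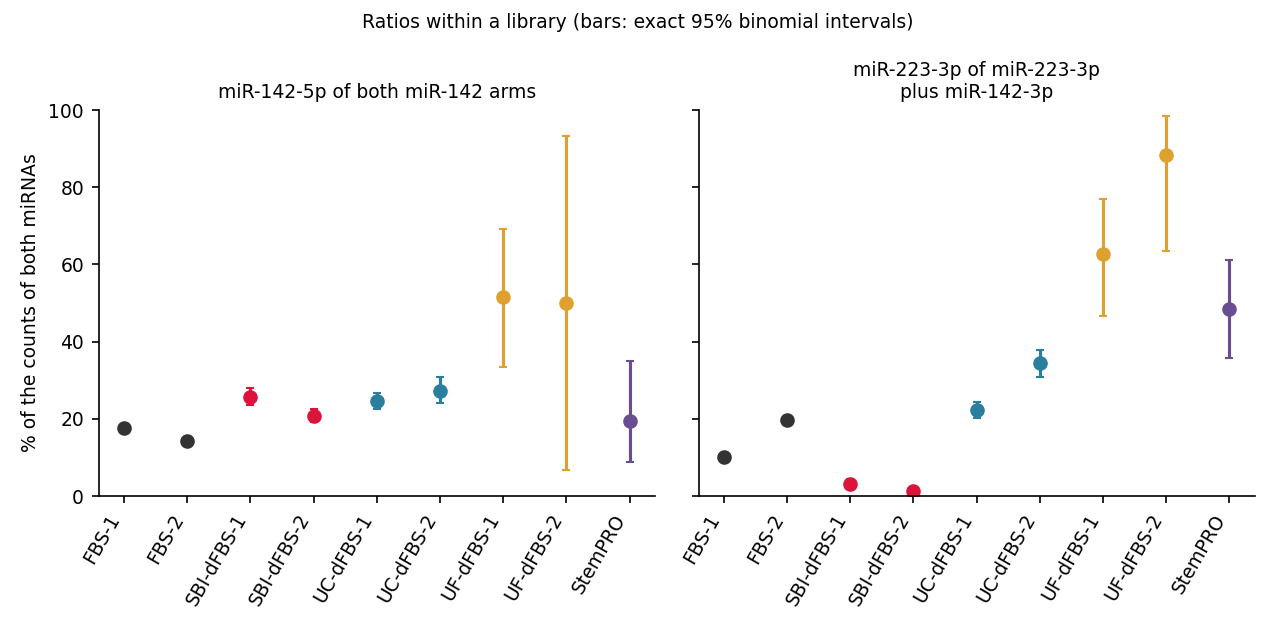
Left, share of miR-142-5p in the counts of both miR-142 arms. Right, share of miR-223-3p in the counts of miR-223-3p plus miR-142-3p. Points are the 9 samples and bars exact 95% binomial intervals. miR-223-3p falls to 3.21% and 1.27% in SBI-dFBS and reaches 62.8% and 88.2% in UF-dFBS.

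As shares of all miRNA counts, the 4 together made up 8.73% and 6.99% in FBS. They held less of every depleted serum, with 1.73% and 3.88% of SBI-dFBS, 4.0% and 3.56% of UC-dFBS and 1.43% and 2.03% of UF-dFBS. miR-223-3p by itself made up 0.733% and 1.20% of the miRNA counts of FBS, against 0.703% and 0.974% after ultracentrifugation and 0.642% and 1.60% after ultrafiltration, so that its share in UC-dFBS and UF-dFBS stayed in or near the range of FBS. In SBI-dFBS its share was 0.0415% and 0.0391%, and its rank among miRNAs went from 16 and 14 in FBS to 91 and 78. miR-142-3p went from 6.56% and 4.92% in FBS to 1.25% and 3.04% in the commercial serum, 2.47% and 1.86% after ultracentrifugation and 0.381% and 0.213% after ultrafiltration. The share of miR-142-5p, at 0.435% to 1.40% in FBS, SBI-dFBS and UC-dFBS, changed the least of the 3 abundant members over these media.

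**Figure D5:**
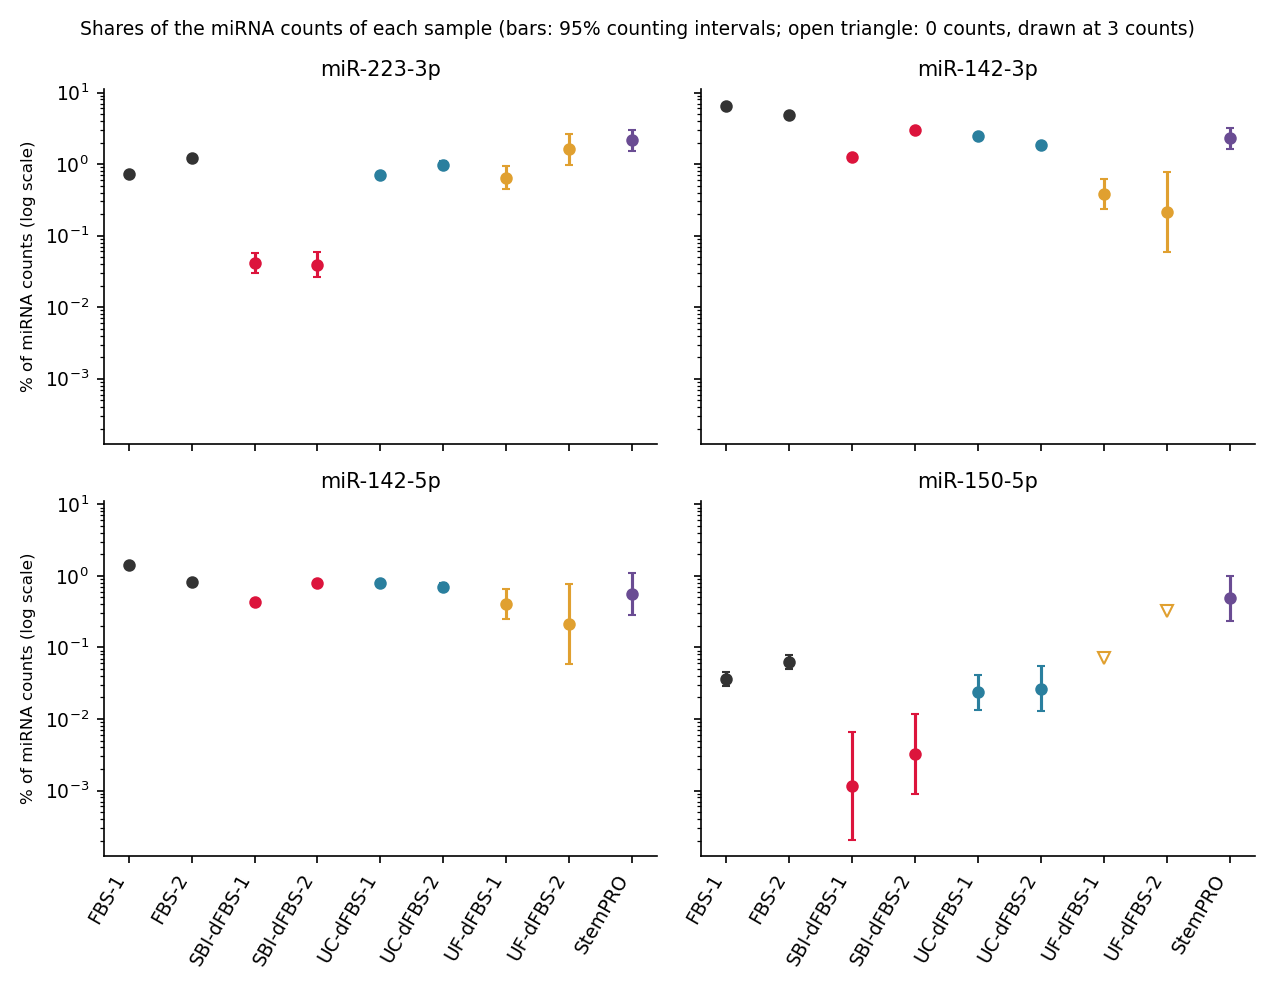
Percent of all miRNA counts of a sample (log axis) held by each miRNA in the 9 samples, with 95% Wilson intervals as bars and open triangles for 0 counts drawn at 3 counts. miR-223-3p holds between 0.642% and 1.60% in FBS, UC-dFBS and UF-dFBS, and 0.0415% and 0.0391% in SBI-dFBS.

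The patterns over the 8 FBS-based samples were compared by the mean absolute difference of log2 values, after centring each miRNA on its own mean. This likeness is descriptive, as it is computed on the values given above. Of the 162 other miRNAs, the nearest to miR-223-3p were miR-150-5p (0.52), miR-139-5p (0.67) and miR-223-5p (0.73), the other arm of its own hairpin, against a median distance of 1.59. miR-142-3p, at 2.12, was only the 147th nearest to miR-223-3p. Nearest to miR-142-3p were miR-143-3p (0.66), miR-126-3p (0.71), a miRNA of endothelium and platelets, and miR-142-5p (0.72), with a median of 1.71. Nearest to miR-142-5p were let-7i-5p (0.40), miR-199b-3p (0.46), which shares its mature sequence with miR-199a-3p so that its own counts are uncertain, and miR-409-3p (0.51), and nearest to miR-150-5p were let-7c-5p (0.46), miR-140-5p (0.51) and miR-155-5p (0.51), with miR-223-3p in the 4th place (0.52). miR-142-3p was only the 23rd nearest to miR-142-5p. The distances of miR-150-5p rest in part on its 0 counts in UF-dFBS, where the value is that of the added 0.5 counts. Its SBI-dFBS values rest on 1 and 2 counts. For miR-223-5p, SBI-dFBS held 0 and 1 counts, UC-dFBS 4 and 2, and both UF-dFBS samples 0. Both miR-150-5p and miR-223-5p are high in FBS by selection, as they passed the filter through FBS only. Their nearness to miR-223-3p thus cannot decide whether the patterns are alike, for the arms of the miR-223 hairpin either.

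Other miRNAs of blood cells were counted from lists named by cell type. Of 9 other miRNAs known from white cells, 8 were in the table and 7 passed the filter. Of these, miR-223-5p and miR-146b-5p passed through the FBS samples only, and are left out of the counts. The shares of all 163 miRNAs, here and below, still hold the 50 that passed through FBS only, and so are not a like base. In SBI-dFBS against FBS, 3 of the other 5 fell, where 44.2% of all miRNAs did: miR-155-5p (-3.89), a miRNA of activated lymphocytes and macrophages, miR-29a-3p (-3.70) and miR-342-3p (-2.19). miR-181a-5p and miR-181b-5p, known from lymphocyte development, had -1.19 and -1.11 and were not called. All 5 were lower in UC-dFBS and in UF-dFBS than in FBS, as were 90.8% and 98.2% of all miRNAs. In SBI-dFBS against UC-dFBS none of the 5 was called, with log2 fold changes from -0.82 to 0.57. Of all miRNAs tested, 0.613% were lower and 11.7% higher in that comparison. In the supplier fit 1 of the 5, miR-29a-3p, was higher in the Sigma serum, as were 35.2% of all miRNAs tested.

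miR-223-5p, which is far less abundant than miR-223-3p, had 11 and 20 counts in FBS, 0 and 1 in the commercial serum, 4 and 2 in UC-dFBS and none in UF-dFBS. Its pooled fold in SBI-dFBS against FBS was 32.3, with an interval of 5.39 to 1317, and its log2 fold change of -4.75 (SE 1.49, adjusted p = 0.00644) was the 5th lowest of 163. In SBI-dFBS against UC-dFBS it had -2.31 (SE 1.74, adjusted p = 0.368), the 5th lowest, which was not called. As it passed the filter through the FBS samples only, and as the comparison with UC-dFBS rests on 1 count against 6, these positions are descriptive.

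Of 6 other miRNAs plentiful in platelets, 5 passed the filter, and all 5 were lower in SBI-dFBS than in FBS (44.2% of all miRNAs) with a median log2 fold change of -1.77, near that of all miRNAs (-1.70). The lowest of them was miR-126-3p (-3.64), and this miRNA was with -12.91 next to miR-142-3p in UF-dFBS against FBS, the 3rd lowest of 163. None of the 5 was called in SBI-dFBS against UC-dFBS, where 0.613% of all miRNAs were lower and 11.7% higher. The 4 red-cell miRNAs, miR-451a, miR-144-3p, miR-144-5p and miR-486-5p, differed from miR-223-3p in both SBI-dFBS and UC-dFBS. None of the 4 was called in SBI-dFBS against FBS (median -0.83, against 44.2% of all miRNAs lower). All 4 were lower in UC-dFBS than in FBS, as were 90.8% of all miRNAs. They fell further there than most, with log2 fold changes from -6.25 to -3.69 (median -4.50). The lowest, miR-144-5p, rests on 4 and 0 counts in UC-dFBS, and miR-144-3p (-4.73) on 3 and 1. miR-223-3p had -2.47 in that comparison, and the median of all miRNAs was -2.70. All 4 red-cell miRNAs were higher in SBI-dFBS than in UC-dFBS (median 3.86), as were 11.7% of all. The values of miR-144-5p and miR-144-3p there rest on the same few counts in UC-dFBS. miR-451a had 71.8 and 32.6 spike-in normalized counts in FBS, 32.7 and 45.5 in SBI-dFBS and 3.82 and 1.61 in UC-dFBS, and its log2 fold change in SBI-dFBS against UC-dFBS was 3.84 (SE 0.68, adjusted p = 1.22e-06). Of 3 miRNAs of the liver none was called in SBI-dFBS against FBS, where 44.2% of all miRNAs were lower. Of the 3, miR-192-5p was higher in SBI-dFBS than in UC-dFBS (2.12, adjusted p = 0.00975), as were 11.7% of all miRNAs. Whether red-cell content of the sera had a part in the values of the 4 followed miRNAs was not tested.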

How the data were processed

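Small ncRNA was sequenced by the authors from EV isolates of 9 media samples, grouped here by medium and supplier as the labels give them. Reads were trimmed with cutadapt 1.11, collapsed by UMI and mapped with Bowtie2 2.2.2 first to mature miRBase sequences, then to the human genome (GRCh37). Such reads per miRNA are the deposited counts, and the deposited spike-in normalized signal is the count divided by the spike-in slope of the sample, by the authors. The ratio of count to signal was checked to be constant within a sample. Reads with a partial UMI were kept by the authors without collapsing, so that a count is not always 1 molecule. Counts of other small ncRNAs were used for totals only, of 6679 (StemPRO) up to 6867736 (UF-dFBS-1) per sample.

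Counts were tested with the quasi-likelihood F-test of edgeR 4.0.16 (R 4.3.3, library sizes set to the spike-in factors, no TMM, Benjamini-Hochberg adjustment over all miRNAs tested, threshold 0.05). The medium fit held the 8 FBS-based samples and 163 miRNAs that reached 10 counts in 2 or more of them. For the supplier fit, of 6 samples and 105 miRNAs, 10 counts in 3 or more samples were required. The SE is the log2 fold change divided by the root of F. StemPRO was not tested. Alternatives were TMM, DESeq2 1.42.0, other filters, fewer samples and the serum as replicate block. Distances between patterns used log2 of the count plus 0.5 divided by the spike-in factor. The fits were tested on simulated data. Values were computed in python 3.11.15 with pandas 2.3.3 and scipy 1.17.1.

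The 4 miRNAs and the lists were chosen with earlier results of these data known. All 4 were named in every comparison, with the 3 nearest patterns of each, and other miRNAs were counted by list. miR-31-5p and the list members named singly were chosen after their values had been seen.

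Pairing of sample 1 and sample 2 by serum comes from the supplier label and the methods. The sample 1 against sample 2 differences of 163 miRNAs of FBS correlated with those of UC-dFBS (r = 0.494) and hardly with those of UF-dFBS (r = 0.0551), and r was -0.0870 for UC-dFBS with UF-dFBS. For SBI-dFBS, whose samples are not paired by serum, r was -0.216 with FBS, -0.217 with UC-dFBS and 0.0605 with UF-dFBS. UF-dFBS-2 had 937 miRNA counts and 94 miRNAs detected, so that many of its values are those of the added 0.5 counts. A low r with UF-dFBS thus cannot decide on the pairing. miRNA sequences were not analysed here.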

Additional observations from a re-analysis of the deposited data

Results flagged for a closer look

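miR-223-3p was higher in the Sigma than in the Gibco sample in FBS (1.54-fold) and in UC-dFBS (1.46-fold), and lower in UF-dFBS, where the ratio of Sigma to Gibco was 0.783 (27 against 15 counts, interval 0.402 to 1.58). The difference between media was not tested, and the interval holds the ratios of FBS and UC-dFBS.

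StemPRO, which entered no test, held 31 counts of miR-223-3p, 33 of miR-142-3p, 8 of miR-142-5p and 7 of miR-150-5p, each above the 3 counts that a count of 0 allows. The library had 1438 miRNA counts, and the 4 miRNAs made up 5.49% of them, between the shares in UC-dFBS and in FBS. miR-150-5p, with no count in UF-dFBS, made up 0.487% of the miRNA counts of StemPRO (95% Wilson interval 0.236 to 1.00) against 0.0363% and 0.0619% in FBS. In spike-in normalized counts it was far lower in StemPRO, with 0.0648 against 15.3 and 10.3 in FBS. The paper found less overlap of human with bovine miRNA reads in StemPRO than in the other media. It proposes that a larger part of the StemPRO reads may be noise of the experiment. There is 1 sample of this medium and no blank library among the samples, and carry-over between libraries was not tested.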

How the results depend on the processing

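Of 328 values of single members under alternatives, 280 kept direction and side of the threshold, 39 lost the call, 3 gained it (miR-150-5p in SBI-dFBS against UC-dFBS under TMM, and miR-223-3p between the suppliers without either UF-dFBS sample) and 6 reversed. With TMM and with DESeq2's own size factors, 2 of the 4 were called in SBI-dFBS against FBS under each. These were miR-223-3p and miR-150-5p, of which the latter passed the filter through FBS only. Under each, 0 were called in UC-dFBS against FBS, 1 in UF-dFBS against FBS and 1 in UF-dFBS against UC-dFBS. TMM called 2 in SBI-dFBS against UC-dFBS. All miRNAs called under these scales, in the same order of tools, were 10 and 10 for SBI-dFBS against FBS, 0 and 2 for UC-dFBS against FBS, 22 (10 lower, 12 higher) and 23 (9 lower, 14 higher) for UF-dFBS against FBS, 15 and 15 (6 lower and 9 higher in each) for UF-dFBS against UC-dFBS, 14 (7 lower, 7 higher) and 9 (4 lower, 5 higher) for SBI-dFBS against UC-dFBS, and 13 (6 lower, 7 higher) and 6 (2 lower, 4 higher) for the suppliers. The reversed values under TMM were 0.15 for miR-223-3p in UC-dFBS against FBS, and -0.22 for miR-223-3p and -0.15 for miR-150-5p between the suppliers, with -0.14 for miR-223-3p under DESeq2's own factors. DESeq2 with spike-in factors called 14 miRNAs between the suppliers and 12 (1 lower, 11 higher) in SBI-dFBS against UC-dFBS. With its own factors it gave no adjusted p for miR-150-5p in UF-dFBS against FBS or between the suppliers. Without the filter 277 miRNAs were called in UF-dFBS against FBS and 24 between the suppliers. At 50 counts fewer miRNAs were tested, and 91, 95, 95 and 19 were called in UC-dFBS and UF-dFBS against FBS, UF-dFBS against UC-dFBS and the suppliers. Only the samples of both media gave 87 for UF-dFBS against UC-dFBS. In SBI-dFBS against FBS the call of miR-142-3p was lost with only the samples of both media (adjusted p = 0.0641), and that of miR-142-5p under DESeq2 with spike-in factors (adjusted p = 0.0571). The cause of these changes was not tested.

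Leaving out 1 sample at a time, members called ranged from 2 to 4 in SBI-dFBS against FBS, 3 to 4 in UC-dFBS against FBS, 4 to 4 in UF-dFBS against FBS and against UC-dFBS, 0 to 1 in SBI-dFBS against UC-dFBS and 0 to 3 between the suppliers. All miRNAs called ranged from 8 (without SBI-dFBS-1) to 78, 56 (without UC-dFBS-2) to 151, 131 to 160, 124 to 153, 5 to 27 and 0 (without either FBS sample) to 59 (without UF-dFBS-2). Without SBI-dFBS-2, miR-142-3p and miR-142-5p in SBI-dFBS against UC-dFBS reversed to -0.13 and -0.11, with ranges of -0.13 to 2.10 and -0.11 to 1.66. The difference in the share of miR-142-5p ranged from 27.5 to 30.2 percentage points. With the serum as replicate block, members called stayed at 4 of 4 in UC-dFBS and UF-dFBS against FBS and in UF-dFBS against UC-dFBS. Nearly all miRNAs were called in these fits, with 154, 155 and 150 of 158 in the same order. The block changed no call of a member. Depth limits miR-150-5p in SBI-dFBS and all members in UF-dFBS-2, where 3 counts are 0.320% of miRNA counts.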
